A study of Mus musculus with 10 samples.

Results

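Brain endothelial and mural cell genes were followed in the whole-brain transcriptome of neonatal mice, with 37 genes chosen by symbol from the 18444 genes of the deposited table. The set held 25 endothelial and barrier genes and 12 genes of pericytes and vascular smooth muscle. They were listed by symbol and not by a cutoff on measured values, but earlier results of these data were known at the time. All 37 were found in the table, and all 37 passed the filter on low values (a mean normalised read count of at least 10), with mean values from 102 upward. A normalised read count is the estimated number of reads of a gene divided by a scaling factor for the library, so that libraries of unequal depth can be compared.

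Heterozygous mice (HT, C57BL/6N, genotype *Arid1b* heterozygous) were compared with wild-type mice (WT, C57BL/6N) to ask how loss of 1 *Arid1b* allele bears on the early postnatal brain. Each group held 5 male mice at postnatal day 3, and each mouse gave 1 library of poly-A RNA from whole brain. HT mice carry a germline deletion in exon 5 with insertion of TT, made with a Cas9 nickase, which truncates the protein, so that every cell type of the brain and its vessels carries the allele. *Arid1b* encodes a subunit of the BAF chromatin remodeling complex. The mice came from crosses of HT males with WT females, and which mice shared a litter is not given in the sources used here. Because whole brain was measured, fewer vascular cells and less RNA per vascular cell cannot be told apart.

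The endothelial cells of brain capillaries form the blood-brain barrier: tight junctions seal the clefts between them, nutrient transporters carry glucose and lipids inward, and efflux pumps return foreign molecules to the blood. Pericytes lie on the outer wall of the capillaries within the basement membrane, and smooth muscle cells wrap the arteries and arterioles. Vessels grow into the brain under vascular endothelial growth factor (VEGF) and Wnt signals from neural tissue, and pericytes are recruited by platelet-derived growth factor from the endothelium. In the mouse this network is still expanding in the first postnatal days.

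Libraries held totals of 27.2 to 29.03 M normalised counts. A rough estimate of their depth, described below, was 25.1 to 31.3 M reads. *Arid1b* itself had normalised counts of 2372, 2230.1, 2253, 1505 and 2142 in HT 1 to HT 5 and 3386, 3155, 3597, 3429 and 3108 in WT 1 to WT 5, so that every HT library lay below every WT library (log2 fold change -0.68, exact permutation p = 0.00794, limma adjusted p = 0.390). Without HT 4 its log2 fold change was -0.57 (limma adjusted p = 2.52e-04). HT 4 stood apart from the other 9 libraries. In HT 4 genes deviated from their mean by a median of 0.209 (absolute log2 value), in the others by 0.0772 to 0.108, and its deviations were correlated with transcript length across genes (Spearman's rho -0.49, against -0.17 to 0.33). Results are therefore given with and without HT 4. Neuronal markers summed to between 133865 and 147807 normalised counts in every library and astrocyte markers to between 31389 and 39067. These sums cannot tell whole brain from a part of it, which rests on the labels. Markers of meninges, choroid plexus, microglia and blood were present as well, as described below.

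Short stretches of promoter sequence are shown for DNA motifs that were searched in the promoters of the member genes. RefSeq promoter windows of 250 bases upstream of a start site (GRCm38.p6) were matched for 27 of the 37 genes, in 33 windows. Among the contractile genes *Acta2* had a window, whereas *Tagln* and *Myh11* had none. Searched was the CArG box, the DNA element of serum response factor, spelled as CC, then 6 bases of which at least 5 are A or T, then GG. Also searched on both strands were CAGGAAG and CCGGAAG, which hold the GGAA core of ETS factors such as ERG and which share their last 5 letters. A CArG box was found in 1 of 9 mural windows (11.1%) and 4 of 24 endothelial windows (16.7%), against 8.59% of all 32851 windows. The endothelial windows were those of *Eng*, *Kdr*, *Ocln* and *Slco1a4*, so that this motif did not set the mural genes apart. *Acta2*, alpha smooth muscle actin, was the mural gene, with a pair of matches that began 84 and 34 bases before its RefSeq start (chr19:34255438-34255467 and chr19:34255388-34255417, minus strand). CAGGAAG was found in 5 of 24 endothelial windows (20.8%), in no mural window and in 10.8% of all windows. CCGGAAG was in 0 of the 33 windows and in 6.91% of all windows. These are matches of letters, not sites of binding. Shown with 10 bases on either side, 5′ to 3′ on the strand of the gene and with the match in capitals, are the pair in *Acta2* and the single matches in *Emcn* (chr3:137340894-137340920, plus strand), the member with the highest fold change, and *Erg* (chr16:95459372-95459398, minus strand), itself an ETS factor. In the GENCODE annotation the *Acta2* pair lies inside the gene (34241090 to 34255590, minus strand), since that annotation starts the gene further upstream. The *Erg* match lies inside the gene in that annotation, before an internal start, and the other *Erg* windows held no match.
Acta2, first match: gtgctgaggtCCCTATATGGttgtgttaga
Acta2, second match: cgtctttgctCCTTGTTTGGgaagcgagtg
Emcn, reverse complement of CAGGAAG: agaagggtctCTTCCTGttcaaatccc
Erg, reverse complement of CAGGAAG: atagaaacctCTTCCTGccattggctg

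Levels of the 37 genes spanned more than 2 orders of magnitude when divided by transcript length (normalised counts per kb of the longest principal transcript, mean of 10 libraries). The highest was *Bsg* at 5352 per kb, which encodes basigin, a partner of lactate transporters that is also made by many cells outside vessels. Next came the tight junction gene *Cldn5* (959 per kb), the pericyte-enriched gene *Vtn* for vitronectin (754 per kb), the pericyte gene *Rgs5*, a regulator of G-protein signaling (692 per kb), the endothelial membrane protein gene *Itm2a* (661 per kb) and the thyroid hormone transporter gene *Slco1c1* (493 per kb). The lowest was *Myh11*, the smooth muscle myosin heavy chain, at 18.1 per kb. *Bsg* ranged from 4671 to 6589.7 per kb over the libraries and did not overlap with *Cldn5*, whereas *Vtn*, *Rgs5* and *Itm2a* overlapped with each other. No member was near 0 in any library, so that endothelial, pericyte and smooth muscle transcripts were all detected in each of the 10 brains.

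**Figure D1:**
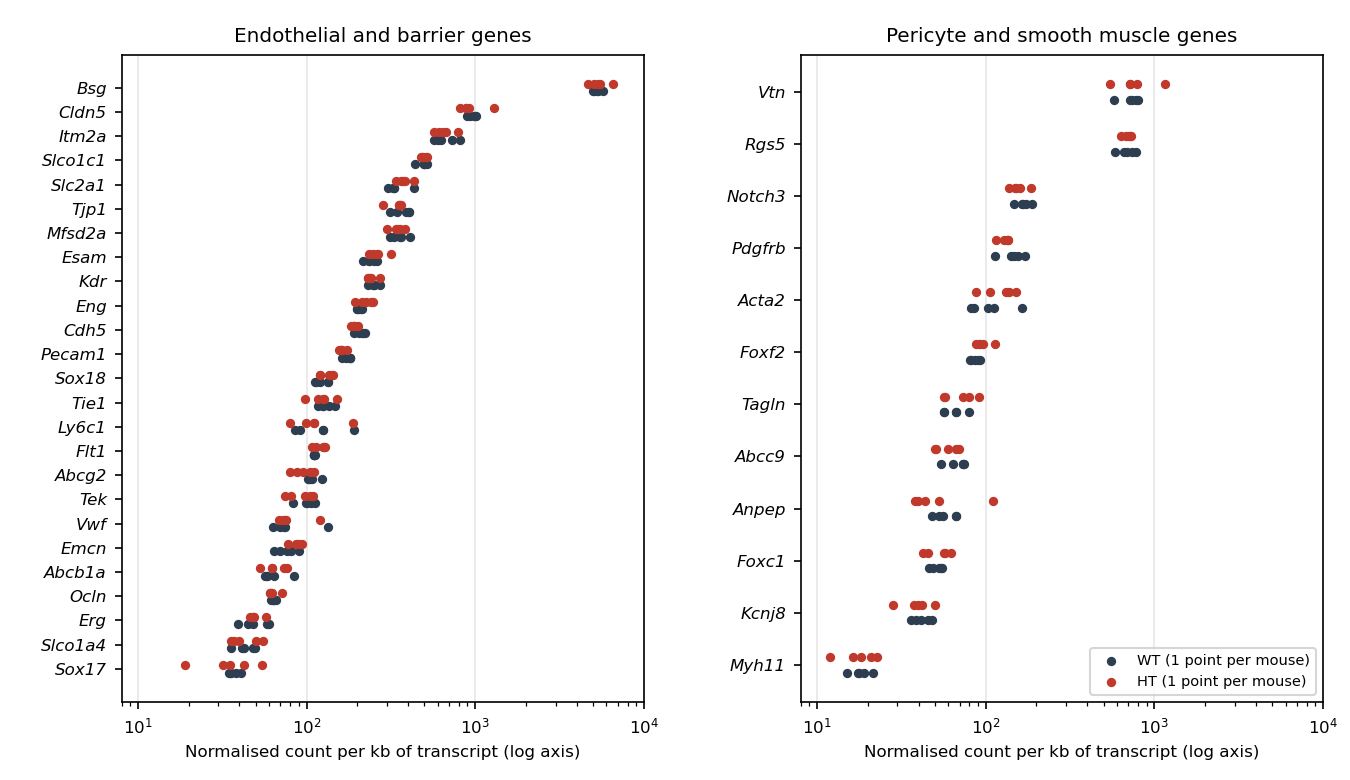
Normalised count per kb of transcript (log axis) of each gene, with 1 point per mouse for WT (dark) and HT (red) and genes ordered by mean level within endothelial and barrier genes (left) and pericyte and smooth muscle genes (right). *Bsg* leads at 5352 and *Myh11* is lowest at 18.1, and the points of HT and WT share the same range for most genes.

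HT and WT brains did not differ in any of the 37 genes at an adjusted p of 0.05. In limma 0 of 37 members were called, against a background of 0% of the 17020 genes tested, and 0 of 37 had an unadjusted p under 0.05, against a background of 3.41% (1.47% higher and 1.93% lower in HT). Of the 37 log2 fold changes, 16 were above 0 and 21 below, between -0.20 and 0.20. The median was -0.014 for the 25 endothelial genes and -0.014 for the 12 mural genes, beside -0.0074 for all genes tested, of which 53.6% were lower in HT. The class medians changed sign with the treatment of the libraries: without HT 3 they were 0.030 (endothelial) and 0.071 (mural), and after removal of a trend with transcript length and GC content 0.0048 and 0.0077. There was no member whose HT and WT libraries did not overlap, against a background of 0.629% of genes. The 95% intervals bound these differences. For 34 of 37 genes the interval lay within a 1.5-fold change in either direction. The exceptions were *Acta2*, *Anpep* and *Ly6c1*, and over all members the intervals reached from -0.67 (*Anpep*) to 0.61 (*Acta2*).

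**Figure D2:**
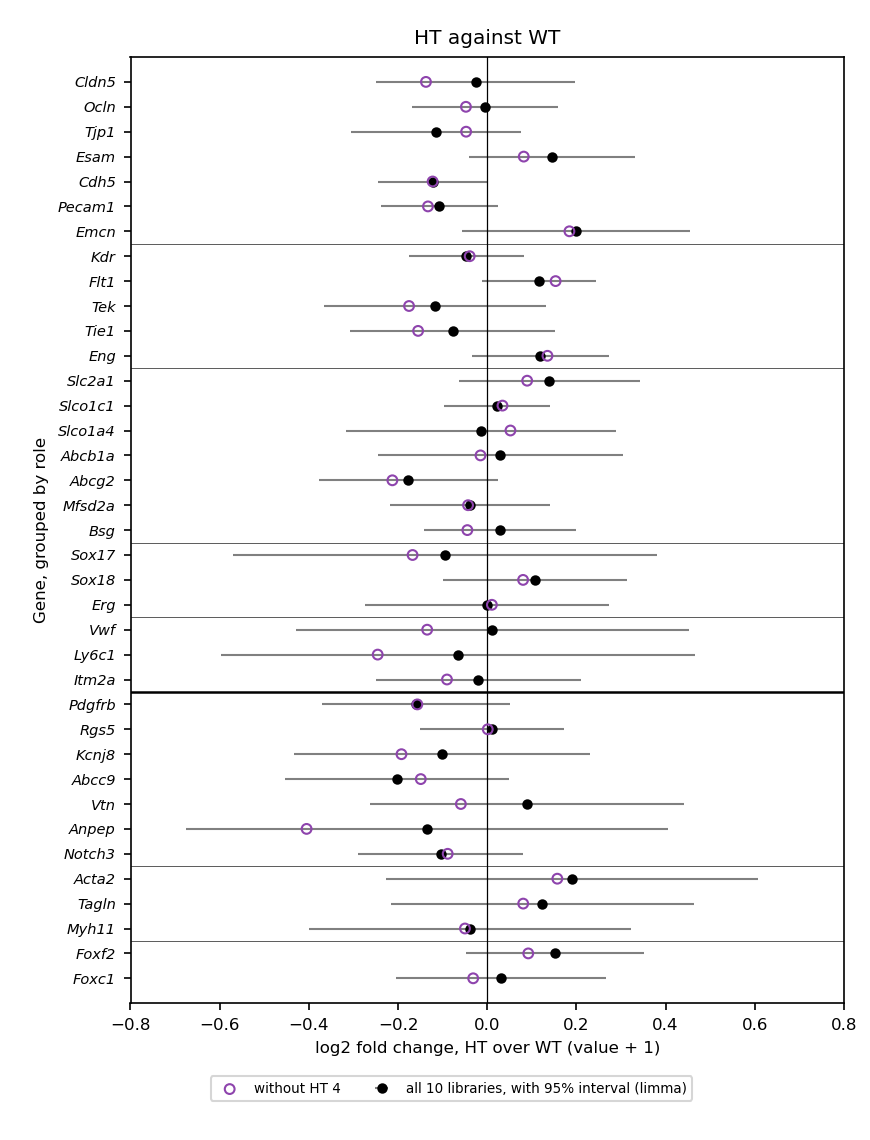
Log2 fold change of HT over WT, log2(normalised count + 1), for each gene grouped by role, with filled points and 95% limma intervals for all 10 libraries and open circles for the fit without HT 4; the thick line divides endothelial genes (above) from mural genes. Filled points lie between -0.20 and 0.20, and the open circle moved farthest for *Anpep*, to -0.41.

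Junction and adhesion genes had log2 fold changes from -0.12 to 0.20, with 2 of 7 above 0. The smallest p among them was that of *Cdh5*, VE-cadherin, which joins endothelial cells at adherens junctions (ENSMUSG00000031871, GRCm38 chromosome 8, 104101625 to 104144511, plus strand). *Cdh5* counts were 737, 809, 768, 769 and 759 in HT 1 to HT 5 and 889.8, 853, 861, 767 and 815 in WT 1 to WT 5. Only WT 4 (767) lay among the HT values. The means were 768 ± 26.2 (SD, n = 5) in HT and 837 ± 47.6 in WT, a log2 fold change of -0.12 ± 0.06 (SE) (95% interval -0.24 to 0.00, limma p = 0.0509, adjusted p = 1.00, exact permutation p = 0.0317). It was the only one of the 37 genes with an exact permutation p under 0.05, and no permutation p was adjusted for the number of genes.

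*Emcn*, endomucin, a sialomucin on the surface of capillaries and veins (ENSMUSG00000054690, chromosome 3, 137341067 to 137432185, plus strand), had the highest fold change of the set. Its counts were 127, 117, 106, 123 and 119.8 in HT 1 to HT 5 and 105, 109, 94.8, 123 and 87.0 in WT 1 to WT 5, with WT 4 (123) among the upper HT values. The log2 fold change was 0.20 ± 0.12 (SE) (95% interval -0.06 to 0.45, exact permutation p = 0.0794, limma adjusted p = 1.00). Among the tight junction genes, *Cldn5*, the main claudin of the barrier, had means of 1355 ± 268 (SD, n = 5) in HT and 1362 ± 66.2 in WT, and *Ocln*, occludin, of 257 ± 18.5 (SD, n = 5) in HT and 257 ± 6.82 in WT. *Tjp1*, the scaffold ZO-1, had means of 2417 ± 236 (SD, n = 5) in HT and 2618 ± 294 in WT (log2 fold change -0.11, and -0.047 without HT 4). *Esam* and *Pecam1*, adhesion molecules of the immunoglobulin superfamily, went in opposite directions. *Esam* had means of 495 ± 57.0 (SD, n = 5) in HT and 446 ± 33.2 in WT, and *Pecam1* of 533 ± 23.7 (SD, n = 5) in HT and 575 ± 27.2 in WT (exact permutation p = 0.0556).

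Receptor genes were the most evenly measured of the set, with a median residual SD of 0.108 on the log2 scale against 0.159 for all genes, and fold changes from -0.12 to 0.12. *Flt1*, the VEGF receptor VEGFR1, which binds VEGF with little signaling (ENSMUSG00000029648, chromosome 5, 147561604 to 147726011, minus strand), had the smallest p. *Flt1* counts were 890.03, 862, 785, 748 and 871 in HT 1 to HT 5 and 764, 767, 767, 758 and 769 in WT 1 to WT 5. The 5 WT libraries lay between 758 and 769, while HT libraries lay on both sides of them, HT 4 lowest and the other 4 above every WT library. Means were 831 ± 61.2 (SD, n = 5) in HT and 765 ± 4.19 in WT, a log2 fold change of 0.12 ± 0.06 (SE) (exact permutation p = 0.0794, limma adjusted p = 1.00). Without HT 4 the fold change was 0.15 (limma adjusted p = 0.472). *Kdr*, VEGFR2, the main signaling receptor for VEGF, had means of 1439.5 ± 96.5 (SD, n = 5) in HT and 1487 ± 84.8 in WT. *Tek* and *Tie1*, the angiopoietin receptor TIE2 and its partner, had means of 434 ± 69.9 (SD, n = 5) in HT and 468 ± 49.9 in WT for *Tek* and of 508 ± 80.4 (SD, n = 5) in HT and 532 ± 49.6 in WT for *Tie1*. In both genes HT 3 was the lowest library, at 345 for *Tek* and 400.3 for *Tie1*. *Eng*, endoglin, a co-receptor for BMP9 and TGF-beta, had means of 768 ± 75.5 (SD, n = 5) in HT and 705 ± 23.2 in WT.

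Transporter and barrier genes had 4 of 7 fold changes above 0, from -0.18 to 0.14. *Abcg2*, an efflux pump of the luminal membrane (ENSMUSG00000029802, chromosome 6, 58584523 to 58695676, plus strand), had the smallest p, with counts of 504, 634, 546, 602 and 459 in HT 1 to HT 5 and 598, 709, 617, 579 and 588 in WT 1 to WT 5. HT 5, HT 1 and HT 3 were the lowest of the 10, and HT 2 and HT 4 lay among the WT values. Means were 549 ± 71.1 (SD, n = 5) in HT and 618 ± 52.8 in WT (log2 fold change -0.18 ± 0.09 (SE), exact permutation p = 0.135, limma adjusted p = 1.00). *Slc2a1*, the glucose transporter GLUT1, had means of 1232 ± 114 (SD, n = 5) in HT and 1124 ± 168 in WT. Its highest values were 1417 in WT 5 and 1411 in HT 4. *Abcb1a*, P-glycoprotein, was also highest in WT 5 (419), with means of 328 ± 48.8 (SD, n = 5) in HT and 322 ± 56.1 in WT. Of its transcript's 31-base words 23.3% occur in another gene, *Abcb1b*, so that the division of reads between the pair is uncertain. *Mfsd2a*, which carries lysophosphatidylcholine with omega-3 fatty acids, had means of 743 ± 64.6 (SD, n = 5) in HT and 764 ± 80.2 in WT. The organic anion transporter genes *Slco1c1* and *Slco1a4* had means of 1577 ± 52.7 (SD, n = 5) in HT and 1555 ± 98.7 in WT for *Slco1c1* and of 166 ± 32.8 (SD, n = 5) in HT and 166 ± 20.9 in WT for *Slco1a4*. *Bsg* (ENSMUSG00000023175, chromosome 10, 79704491 to 79711969, plus strand) had counts of 7128, 7698, 8108, 10056 and 8362 in HT 1 to HT 5 and 8084, 8133, 7654, 7719 and 8725 in WT 1 to WT 5. HT 4 held the highest value and HT 1 the lowest, both within the same genotype.

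Endothelial transcription factors included *Sox18* and *Sox17*, SOX factors of vessel growth and arterial identity, and the ETS factor *Erg*. *Sox18* (ENSMUSG00000046470, chromosome 2, 181669836 to 181671640, minus strand) had counts of 193, 220.1, 194, 229.9 and 234 in HT 1 to HT 5 and 216, 194, 185, 182 and 217 in WT 1 to WT 5, mixed between the groups (log2 fold change 0.11 ± 0.10 (SE), exact permutation p = 0.206). *Sox17* varied 2.87-fold over the libraries, from 59.2 in HT 3 to 169.7 in HT 5, whereas its WT values stayed between 109 and 128. *Erg* had means of 161 ± 14.7 (SD, n = 5) in HT and 163 ± 28.4 in WT. The remaining endothelial genes were *Vwf*, von Willebrand factor of the clotting system, *Ly6c1*, a GPI-anchored surface protein, and *Itm2a*. *Ly6c1* (ENSMUSG00000079018, chromosome 15, 75044018 to 75048830, minus strand) had counts of 94.0, 84.3, 67.7, 159 and 93.9 in HT 1 to HT 5 and 106, 76.7, 72.0, 105 and 162 in WT 1 to WT 5, and 46.8% of its 31-base words occur in *Ly6c2*. *Vwf* counts were 637, 607, 659, 1067 and 666 in HT 1 to HT 5 and 657, 612, 563, 652 and 1179 in WT 1 to WT 5. For both genes 1 library in each group was high, HT 4 and WT 5, while the other 8 stayed at or below 106 for *Ly6c1* and 666 for *Vwf*. *Itm2a* had means of 1144 ± 148 (SD, n = 5) in HT and 1163 ± 174 in WT.

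Pericyte genes had 5 of 7 fold changes below 0. *Abcc9*, the SUR2 subunit of the ATP-sensitive potassium channel (ENSMUSG00000030249, chromosome 6, 142587862 to 142702315, minus strand), had the lowest fold change of the set. *Abcc9* counts were 429.6, 413, 312, 315 and 373 in HT 1 to HT 5 and 400.4, 456, 456, 464 and 339.6 in WT 1 to WT 5. HT 3 and HT 4 were the lowest libraries, but WT 5 (339.6) lay below 3 of the HT values. Means were 368 ± 54.5 (SD, n = 5) in HT and 423 ± 53.2 in WT, a log2 fold change of -0.20 ± 0.12 (SE) (95% interval -0.45 to 0.05, exact permutation p = 0.143, limma adjusted p = 1.00). *Kcnj8*, the pore subunit Kir6.1 of the same channel, lies beside it on chromosome 6 (142564837 to 142571614) and had means of 101 ± 20.3 (SD, n = 5) in HT and 107 ± 12.8 in WT. *Pdgfrb*, the receptor through which pericytes are recruited, had means of 703 ± 49.1 (SD, n = 5) in HT and 790.2 ± 115 in WT, and *Rgs5* of 2841 ± 164 (SD, n = 5) in HT and 2829.6 ± 311 in WT. *Notch3*, the Notch receptor of mural cells, had means of 1257 ± 147 (SD, n = 5) in HT and 1349.8 ± 126 in WT. *Vtn* had means of 1371 ± 391 (SD, n = 5) in HT and 1259 ± 154 in WT, with HT 4 at 2012 and the other 9 libraries at or below 1387. *Anpep*, the cell surface peptidase CD13, had counts of 167, 201, 145, 421 and 151 in HT 1 to HT 5 and 199.6, 212, 254, 182 and 254 in WT 1 to WT 5. HT 4 was the highest of the 10 libraries by far, and the remaining HT libraries lay at or below 201, where 2 of 5 WT libraries also lay.

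Contractile genes varied among mice of 1 genotype by a median residual SD of 0.283 on the log2 scale. *Acta2* (ENSMUSG00000035783, chromosome 19, 34241090 to 34255590, minus strand) had counts of 282, 306, 178, 269 and 217 in HT 1 to HT 5 and 209.8, 333, 228, 167 and 173 in WT 1 to WT 5. WT 2 was highest and WT 4 lowest, so that the WT group covered the whole range of HT. Means were 250.3 ± 52.1 (SD, n = 5) in HT and 222 ± 66.9 in WT, a log2 fold change of 0.19 ± 0.19 (SE) (95% interval -0.23 to 0.61, exact permutation p = 0.413). *Myh11* (ENSMUSG00000018830, chromosome 16, 14194535 to 14291372, minus strand) had counts of 147, 135, 77.4, 117 and 105 in HT 1 to HT 5 and 114, 138, 114, 123 and 97.8 in WT 1 to WT 5, and HT 1 and HT 3 were its highest and lowest libraries. *Tagln*, transgelin, an actin-binding protein of smooth muscle, had counts of 118, 146, 90.8, 127 and 91.1 in HT 1 to HT 5 and 90.7, 127, 107, 106 and 89.8 in WT 1 to WT 5. *Foxf2*, a forkhead factor needed for brain pericytes (ENSMUSG00000038402, chromosome 13, 31625816 to 31631403, plus strand), had counts of 227, 216, 206, 268 and 219 in HT 1 to HT 5 and 220.01, 193, 189.7, 212 and 204 in WT 1 to WT 5. HT 4 was the highest, and HT 1 also lay above every WT library. HT 2, HT 3 and HT 5 lay among the WT values (log2 fold change 0.15 ± 0.09 (SE), exact permutation p = 0.0635, limma adjusted p = 1.00). *Foxc1* had means of 309 ± 48.6 (SD, n = 5) in HT and 300.5 ± 21.6 in WT.

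Without HT 4, with 4 HT and 5 WT libraries, 0 of 37 members were called, against a background of 0.0118% (2 genes, of which 1 was *Arid1b*). An unadjusted p under 0.05 was then found for 5 of 37 members (13.5%), against a background of 8.40%. The 4 lower in HT were *Cldn5*, *Pecam1*, *Abcg2* and *Anpep* (background 3.71% of genes in that direction), and the 1 higher in HT was *Flt1* (background 4.69%); they are named because the count is small. The largest of these differences was in *Anpep*, with a log2 fold change of -0.41 (limma adjusted p = 0.446), against -0.14 with all libraries. *Cldn5* moved from -0.03 to -0.14 (limma adjusted p = 0.532). *Flt1* was then the only one of 37 members whose groups did not overlap, against a background of 2.96%. The medians were -0.044 for endothelial and -0.054 for mural genes, and -0.00081 for all genes. Of the 37 fold changes 24 lay below 0, beside 50.4% of all genes.

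Differences between single mice ran through both classes of genes. HT 3 was the lowest of the 10 libraries for 15 of 37 members (40.5%), against 8.36% of all genes tested, and lay below the gene mean in 34 of 37 (91.9%), against 48.9% of all genes. All 12 mural genes were below their mean in HT 3, with a median deviation of -0.30 on the log2 scale for mural and -0.087 for endothelial genes. HT 4 lay above the mean in 25 of 37 members (67.6%), against 50.9% of all genes, was the highest library for 10 of 37, against 24.7% of all genes, and was the lowest library for 8.11% of members against 27.5% of all genes. Its median deviation was 0.23 for mural and 0.16 for endothelial genes. WT 2 was at 0.18 and WT 5 at -0.18 for mural genes. The median deviation over all genes stayed between 0.0032 and 0.0065 in every library. These shares describe libraries, and no test was made of them.

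**Figure D3:**
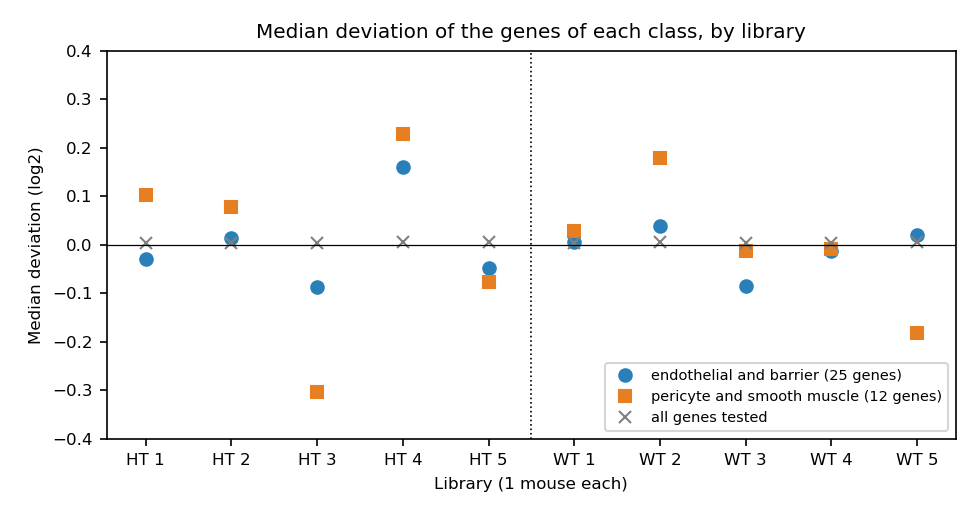
Median deviation (log2) of the genes of each class from their means over the 10 libraries, by library, with circles for 25 endothelial and barrier genes, squares for 12 pericyte and smooth muscle genes and crosses for all genes tested. Mural genes were at -0.30 in HT 3 and 0.23 in HT 4, while all genes stay near 0.

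The 3 contractile genes had median deviations of 0.29 and 0.41 in HT 1 and HT 2, -0.37 in HT 3, 0.26 in WT 2 and -0.26 in WT 5. The median residual SD of the 12 mural genes was 0.224 on the log2 scale, and 9 of 12 lay above the median of all genes (0.159). For endothelial genes the median was 0.157, with 11 of 25 above that of all genes. The ratio of the highest to the lowest library ran from 1.17 to 2.90 over the members, and was at least 2 for 5 of them, *Anpep*, *Sox17*, *Ly6c1*, *Vtn* and *Vwf*.

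**Figure D4:**
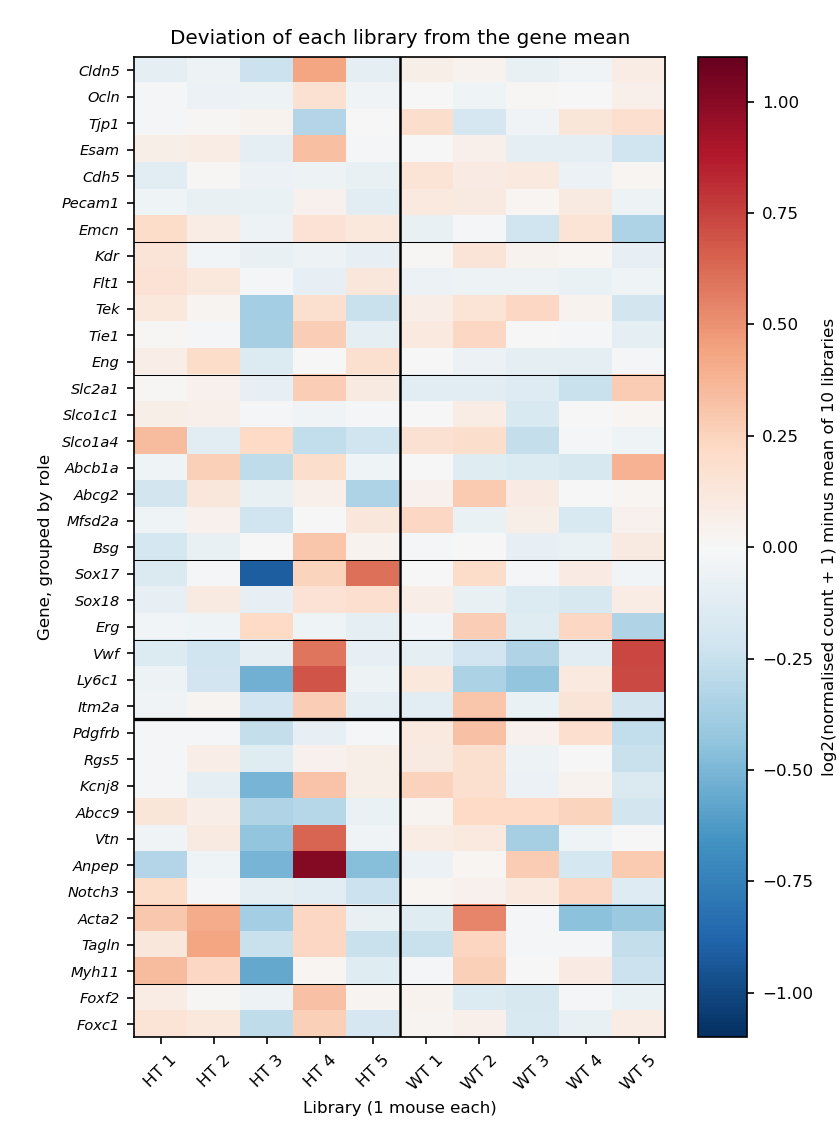
Difference between each library and the average of all 10 libraries, in log2(normalised count + 1), for each gene grouped by role (rows; the thick line divides endothelial from mural genes) and each mouse (columns; HT left, WT right). The column of HT 3 is mostly blue, with 34 of 37 genes below the mean, and *Vwf* and *Ly6c1* are red in both HT 4 and WT 5.

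Markers of other cell types were summed in the same libraries. Microglial markers (12 genes) summed to 2204 in HT 3, the lowest of the 10 libraries, against 2385 to 3986 in WT and up to 3369 in HT 4. Meningeal and fibroblast markers (12 genes) summed to 8723 to 14973 in HT and 9620.5 to 35918 in WT, with HT 3 at 9225. The highest sum was in WT 3, but the median deviation of the 12 genes there was -0.0096. By that median WT 2 (0.33) and HT 4 (0.24) were the highest libraries. Markers of choroid plexus, whose capillaries are fenestrated and lack the barrier, summed to 7013 to 9968 in HT and 10574 to 14332 in WT. These sums did not overlap between the groups. No share over other sets of 9 genes was computed, and the 0.629% of single genes tested is not a like measure. The median deviations of the 9 genes did overlap, with WT 1 at -0.13, below HT 1 at -0.064 and HT 3 at -0.091. All 9 were lower in HT. Their median log2 fold change was -0.46 and ran from -0.52 to -0.31 over the other settings tried. An unadjusted p under 0.05 was found for 4 of 9, beside 3.41% of all genes (1.93% lower in HT), and 0 were called by limma. Of all genes 53.6% were lower in HT. Red blood cell markers summed to 5960.4 to 13733 in HT and 4528 to 13889 in WT, with 6 of 6 tested above 0 (median 0.48, from 0.29 to 0.72 over the other settings) and the highest sum in WT 5. Of the 10 red blood cell markers listed, 7 were in the table and the other 3 are not analysed here. Microglial markers were lower in HT for 12 of 12 genes (median -0.19, but -0.31 without HT 4 and -0.10 without WT 2) and meningeal markers for 8 of 12 (median -0.056, but -0.15 without HT 4 and 0.017 without HT 5), and in either list 0 were called. Astrocyte and neuronal markers had medians of 0.044 and 0.045, each with 6 of 9 above 0, and the astrocyte median was -0.020 without HT 4 and -0.043 without WT 5. None of the markers in the table was at 0 in any library. The part of these other tissues in the values of vascular genes was not tested.

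Signals that act on brain vessels were followed in a further list of 36 genes, all of which were tested. None was called by limma, 12 were above 0 and 24 below, with a median of -0.036. An unadjusted p under 0.05 was found for 2 of the 36, against a background of 3.41% of all genes. Both were lower in HT, a direction that held 1.93% of all genes. VEGF ligands lay from -0.02 (*Vegfa*) to 0.10 (*Pgf*), and the angiopoietins *Angpt1* and *Angpt2* at -0.04 and -0.02. *Pdgfb*, the endothelial ligand of the pericyte receptor, lay at 0.05. Without HT 4 several of these changed sign or size, with *Vegfc* moving from 0.09 to -0.14, *Pgf* to -0.0074, *Pdgfb* to -0.0091 and *Angpt2* to -0.11. The neural Wnt ligands *Wnt7a* and *Wnt7b* lay at 0.02 and 0.01. The genes with an unadjusted p under 0.05 were *Lrp5* and *Adgra2*, which both encode receptors of this Wnt signal.

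*Lrp5*, a Wnt and Norrin co-receptor, had counts of 349, 303, 327, 317 and 294 in HT 1 to HT 5 and 404, 426, 394, 425 and 344 in WT 1 to WT 5. Only HT 1 (349) lay above the lowest WT library, WT 5 (344). Means were 318 ± 21.2 (SD, n = 5) in HT and 399 ± 33.4 in WT, a log2 fold change of -0.32 ± 0.08 (SE) (95% interval -0.50 to -0.15, limma p = 0.0015, exact permutation p = 0.0159). Its adjusted p was 1.00, and between 0.440 and 1.00 over the other settings tried, in which the fold change ran from -0.38 to -0.30. *Adgra2* (GPR124), which with *Reck* passes on the WNT7 signal, had counts of 532, 517, 450.1, 540.4 and 539 in HT 1 to HT 5 and 605, 698, 568, 627 and 513 in WT 1 to WT 5. WT 5 (513) lay below 4 of the HT libraries, and HT 3 (450.1) was the lowest. The log2 fold change was -0.22 ± 0.09 (SE) (limma p = 0.0249, exact permutation p = 0.0476, adjusted p = 1.00). *Notch1*, a Notch receptor of endothelium and neural progenitors, came next with counts of 1571, 1474, 1377, 1339 and 1293 in HT 1 to HT 5 and 1569, 1679, 1584, 1881 and 1305 in WT 1 to WT 5 and a log2 fold change of -0.18 ± 0.09 (SE) (limma p = 0.0637, exact permutation p = 0.103). Other genes of the Wnt group lay closer to 0, with *Fzd4* at -0.05, *Lrp6* at -0.03, *Tspan12* at -0.06, *Reck* at -0.05, *Ndp* at -0.13 and the target genes *Lef1* and *Apcdd1* at 0.07 and -0.07. Without HT 4 *Ndp* lay at -0.23, *Lrp6* at 0.0066, *Lef1* at 0.0034 and *Apcdd1* at -0.0019, whereas *Lrp5* stayed at -0.32 and *Adgra2* at -0.24. *Lrp5*, *Lrp6* and *Notch1* are also made by neural cells, so that these values are not of vessels alone. Without HT 4 an unadjusted p under 0.05 was found for 3 of the 36 genes, beside 8.40% of all genes tested, and 28 of 36 lay below 0, beside 50.4% of all genes.

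**Figure D5:**
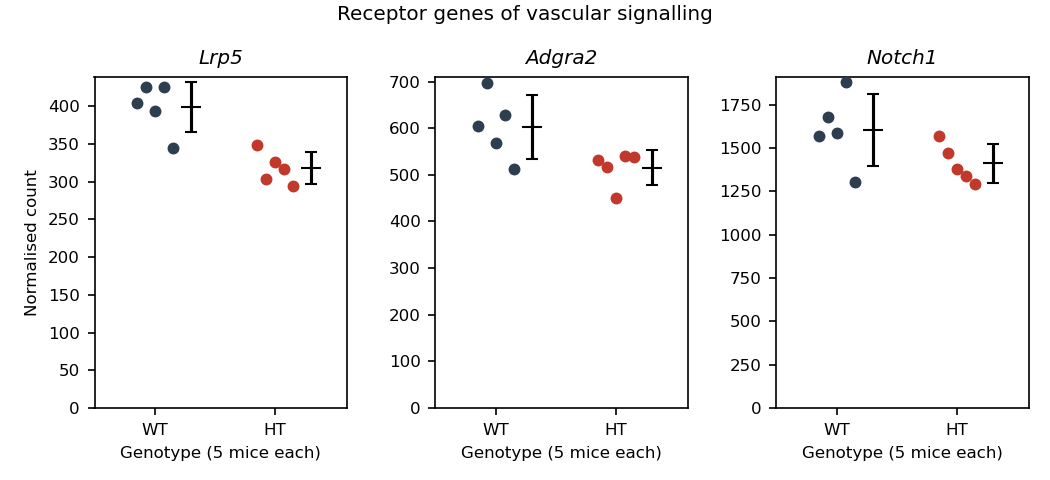
Normalised counts of *Lrp5*, *Adgra2* and *Notch1* in each mouse (points) with mean and SD (bars, 5 mice per genotype) for WT and HT, each axis starting at 0. HT means were 318, 516 and 1411, against 399, 602 and 1604 in WT, with the groups overlapping in all 3 genes.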

How the data were processed

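Paired-end poly-A RNA-seq of whole brain from 10 mice was analysed. Per the study's methods and the submitters' processing notes, the authors prepared stranded libraries, quantified reads with Salmon 1.1.0 and a GC-bias correction on GRCm38, imported them with tximport and divided them by DESeq2 1.30.1 size factors (R 4.1.1 per the labels). The deposited signal is therefore a normalised read count, and the deposited values were not whole multiples of 1 read (17.3% to 52.6% of low values within 0.05), so that count tests were not run.

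Values were tested as log2(value + 1), a scale that understates the change of low genes, with limma 3.58.1 in R 4.3.3 (limma-trend, robust, two-sided, no covariate, Benjamini-Hochberg over all 17020 genes with a mean of at least 10, threshold 0.05); 1424 genes were left out. Single genes also had a two-sided exact permutation test over 252 assignments (smallest p 0.00794). Precision rests on the spread between mice. The worth of 1 read in each library was estimated as the scaling that put the most low values within 0.05 of a whole number. It was 0.897 to 1.13 normalised counts, which gave an estimated 25.1 to 31.3 M reads per library. At that scaling only 17.3% to 52.6% of low values were near whole, so that the estimates are rough. Symbols, positions and transcript lengths are from GENCODE M21 (18431 of 18444 identifiers matched). Libraries were grouped by the sample labels.

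Library values were named for the gene with the smallest p in each role, non-overlapping members, the extremes of fold change and of level per kb, the 3 smallest p of the signaling list and *Arid1b*. Other genes with library values were chosen after values were seen. Members, lists and tests were chosen with earlier results of these data known. The other settings tried were a pseudocount of 5, no filter or a mean of at least 100, each library left out, array weights, quantile normalisation, removal of a length and GC trend, a replicate block and, chosen after seeing the data, HT 4 left out with the trend removed. The annotation used by the authors is not given in the sources used here.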

Additional observations from a re-analysis of the deposited data

Results flagged for a closer look

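Within groups of 5 mice, the highest or lowest library's gap to its nearest neighbor was taken as a share of the range. This share was above Dixon's 95% critical value (0.71) in 13 of 86 groups checked. About 4.3 would be so by chance if the groups were independent and the values normal, but the groups reuse the same mice. The same count over all genes was not made, so that no excess specific to these genes is shown. The far library was HT 4 in 7 of the 13 groups, WT 5 in 3, HT 3 in 2 and HT 1 in 1. Among all genes tested HT 4 was the highest library for 24.7% and the lowest for 27.5%. HT 4 was far above the other HT libraries for *Cldn5* (gap 0.773 of the range), *Ocln* (0.799), *Vwf* (0.870), *Ly6c1* (0.711) and *Anpep* (0.798), and far below them for *Tjp1* (0.851) and *Arid1b* (0.735). *Cldn5* was at 1823 in HT 4 and at 1143 to 1297 in the other HT libraries, and *Anpep* at 421 against 145 to 201. *Arid1b* was at 1505 in HT 4 and at 2142 to 2372 in the others.

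WT 5 was far above the other WT libraries for *Slc2a1* (0.783), *Abcb1a* (0.724) and *Vwf* (0.847). *Vwf* was at 1179 in WT 5 and at 563 to 657 in the others. HT 3 was far above for *Erg* (0.794) and far below for *Adgra2* (0.743). HT 1 was far above for *Kdr* (0.755), at 1607 against 1375 to 1432.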

How the results depend on the processing

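Under 18 other settings 0 of 37 members were called by limma, with a smallest adjusted p of 0.446, and 0 of the 36 signaling genes. Over all genes 0 were called with all libraries, 2 with array weights, 1 with the length and GC trend removed, 0 to 2 with single libraries left out (2 without HT 4) and 2 without HT 4 and with the trend removed; *Arid1b* was among the genes called in each of these fits that made a call. Of 37 members 19 kept the sign of their fold change under all settings, and 18 changed it under at least one. Values with changed sign were, with array weights, *Bsg* -0.016, *Erg* 0.0020, *Foxc1* -0.017, *Rgs5* -0.0091, *Slco1a4* 0.022, *Vtn* -0.028, *Vwf* -0.061; with the trend removed, *Erg* 0.0049, *Ocln* 0.016, *Slco1a4* 0.0048; with quantile normalisation, *Erg* 0.027, *Ocln* 0.014, *Slco1a4* 0.010; and without HT 4 and with the trend removed, *Abcb1a* -0.034, *Bsg* -0.010, *Erg* 0.014, *Foxc1* -0.049, *Rgs5* -0.012, *Slco1a4* 0.040, *Vtn* -0.031, *Vwf* -0.18. With 1 library left out, the log2 fold changes of the 18 ran from their lowest to their highest value as follows: *Abcb1a* -0.031 to 0.13, *Bsg* -0.044 to 0.080, *Cldn5* -0.14 to 0.031, *Erg* -0.084 to 0.067, *Foxc1* -0.031 to 0.10, *Itm2a* -0.090 to 0.054, *Kcnj8* -0.19 to 0.013, *Ly6c1* -0.25 to 0.11, *Mfsd2a* -0.085 to 0.014, *Myh11* -0.13 to 0.098, *Ocln* -0.048 to 0.012, *Rgs5* -0.049 to 0.057, *Slco1a4* -0.10 to 0.052, *Slco1c1* -0.018 to 0.045, *Sox17* -0.26 to 0.12, *Tie1* -0.15 to 0.0044, *Vtn* -0.059 to 0.21, *Vwf* -0.13 to 0.20. The median of endothelial genes was 0.010 with quantile normalisation, and the class medians ran from -0.044 to 0.030 (endothelial) and -0.065 to 0.071 (mural) with 1 library left out. The cause of these changes was not tested.

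The replicate numbers were not taken to pair the mice, since no label ties equal numbers to a shared litter or batch. Correlations of deviations from the group means between mice with the same number were 0.091, 0.084, 0.082, -0.10 and 0.093. Even so, 4 of 5 HT libraries correlated best with the WT library of their own number, and a link between equal numbers was not tested. With the replicate number as a block, 0 members and 0 of all genes were called, and 1 of 37 members, *Abcg2*, had an unadjusted p under 0.05, beside 3.28% of all genes. How far these data bound a difference varied by gene: the 95% intervals of 34 members lay within 1.5-fold either way.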
